A study of Mus musculus with 10 samples.

Results

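The genes described here encode the enzymes of the tricarboxylic acid (TCA) cycle and the proteins that bring pyruvate and fatty acids to it. They are a fixed list of 51 genes, of 24063 gene symbols in the count tables. Of these, 50 were found by symbol, and pyruvate carboxylase (Pc) was found under its older symbol Pcx through RefSeq synonyms. All 51 passed the filter on low counts, which left 13880 genes to be tested.

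The study sequenced RNA from mouse quadriceps. There were 5 1C-MIM animals, whose drinking water carried a supplement of that name for 1 to 3 months, and 5 Control animals, which drank the facility's water without it. The labels name no ingredient of the supplement. All 10 animals were wild-type (WT) C57BL mice aged 17 to 20 months, all had been habituated to an open field, and all had a tibialis anterior muscle injured before collection. The RNA came from their uninjured quadriceps, so that the Controls, too, are old animals with an injury elsewhere. No label names the sex, the cage, the hour of collection or the feeding state, and nothing says whether library preparation was batched, so that n counts libraries numbered as animals.

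The TCA cycle oxidises acetyl-CoA inside mitochondria and passes the electrons to the respiratory chain. Acetyl-CoA comes from pyruvate through the pyruvate dehydrogenase complex, which pyruvate dehydrogenase kinases switch off, and from fatty acids through beta-oxidation. Fatty acids are released from blood lipids at the capillary wall, taken up, activated, carried into mitochondria by the carnitine shuttle and shortened step by step. In muscle, much of this programme is driven by peroxisome proliferator-activated receptors (PPARs) and estrogen-related receptors (ERRs). Oxidative fibres hold more of these enzymes than glycolytic fibres.

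Library depth was 28521254 to 31771296 counts after 1 transcript was kept per symbol. Levels are given as counts per 1000000 (CPM), scaled by TMM factors of 0.9402 to 1.059. Fast-fibre transcripts summed to 192550 to 219760 CPM over 9 markers in 1C-MIM and to 175340 to 199030 CPM in Control. Ucp1, the brown fat uncoupler, was at 0 to 0.172 CPM in 1C-MIM and 0 to 0.13 CPM in Control. Some libraries stood apart: Control 5 held the lowest value of the 10 libraries in 23.8% of all tested genes and the highest in 19.5%, 1C-MIM 2 held each in 16.5%, and Control 1 held the lowest in 13.2% and the highest in 13.9%.

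Most of the oxidative programme did not pass the test for a difference. Of the 51 members, 2 were higher in 1C-MIM than in Control, 0 were lower and 49 were not called (edgeR quasi-likelihood test; called means a p-value below 0.05 after Benjamini-Hochberg adjustment across the 13880 genes). This is 3.92% of the members, against 21.6% of all tested genes called in either direction, 9.78% called higher and 11.8% called lower. The 2 genes were Pdk4, the kinase that shuts pyruvate dehydrogenase when fat is burnt, and Cd36, a fatty acid transporter of the cell surface. At an unadjusted p under 0.05 there were 7 members, 6 with a positive change and 1, Acads, with a negative change. DESeq2 called 6 members higher and 0 lower, and limma-voom called 3 higher and 0 lower. Of all tested genes, DESeq2 called 12.9% higher and limma-voom 10.1%. The count depended on single libraries, as did that of all genes. It was 6 higher without Control 2, 4 without 1C-MIM 2, 1 without Control 5, 1 without 1C-MIM 3 and 0 without 1C-MIM 4. Of all tested genes, 10.5% were higher without Control 2 and 6.67% without 1C-MIM 2. The shares were 7.16% without Control 5, 6.04% without 1C-MIM 3 and 5.29% without 1C-MIM 4. Without 1C-MIM 4, Pdk4 and Cd36 still had log2 fold changes of 0.36 and 0.34. The members' count was 0 higher and 1 lower without both Control 1 and Control 5. These are the lowest Controls for both called members, so that leaving them out lowers both differences by construction. The members' count was highest, at 10 higher and 0 lower, with each library's trend with transcript length removed. Without Control 1 alone it was 2 higher and 1 lower, the lower one being Acads.

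With TMM scaling and no length correction, the members were measured closely enough to bound most of these differences. The standard error of the log2 fold change had a median of 0.07 over the members and 0.1 over all tested genes. For 42 of the 51 members (82.4%) the 95% interval of the difference lay inside a fold of 1.25 in either direction, a bound chosen after the values were seen. Over all tested genes, 34.2% had such an interval. Among the 2507 tested genes with a mean of at least 50 CPM, where the median standard error was 0.07, 29.8% were called; 47 members were in that class, and 2 of them were called. The median log2 fold change was 0.02 over the members and 0.0009 over all tested genes. The members split into 30 positive and 21 negative values. That split turned with the scaling, to 23 positive and 28 negative values with library totals alone, under which the median of all genes shifted to -0.07, the members' count was 0 higher, and 5 members (Idh3g, Sdhc, Pdhb, Acads and Hadh) were called lower. With the length trend removed it turned the other way, to 46 positive and 5 negative values with a median of 0.12. Some of these values lay outside the 95% intervals of the TMM fit, which do not cover the choice of setting. On the log2 scale Etfa had 0.27 (interval up to 0.25), Sdhb 0.09 (up to 0.06) and Ogdh -0.01 (from 0.04). Calls below are those with TMM scaling and no length correction unless another setting is named.

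**Figure D1:**
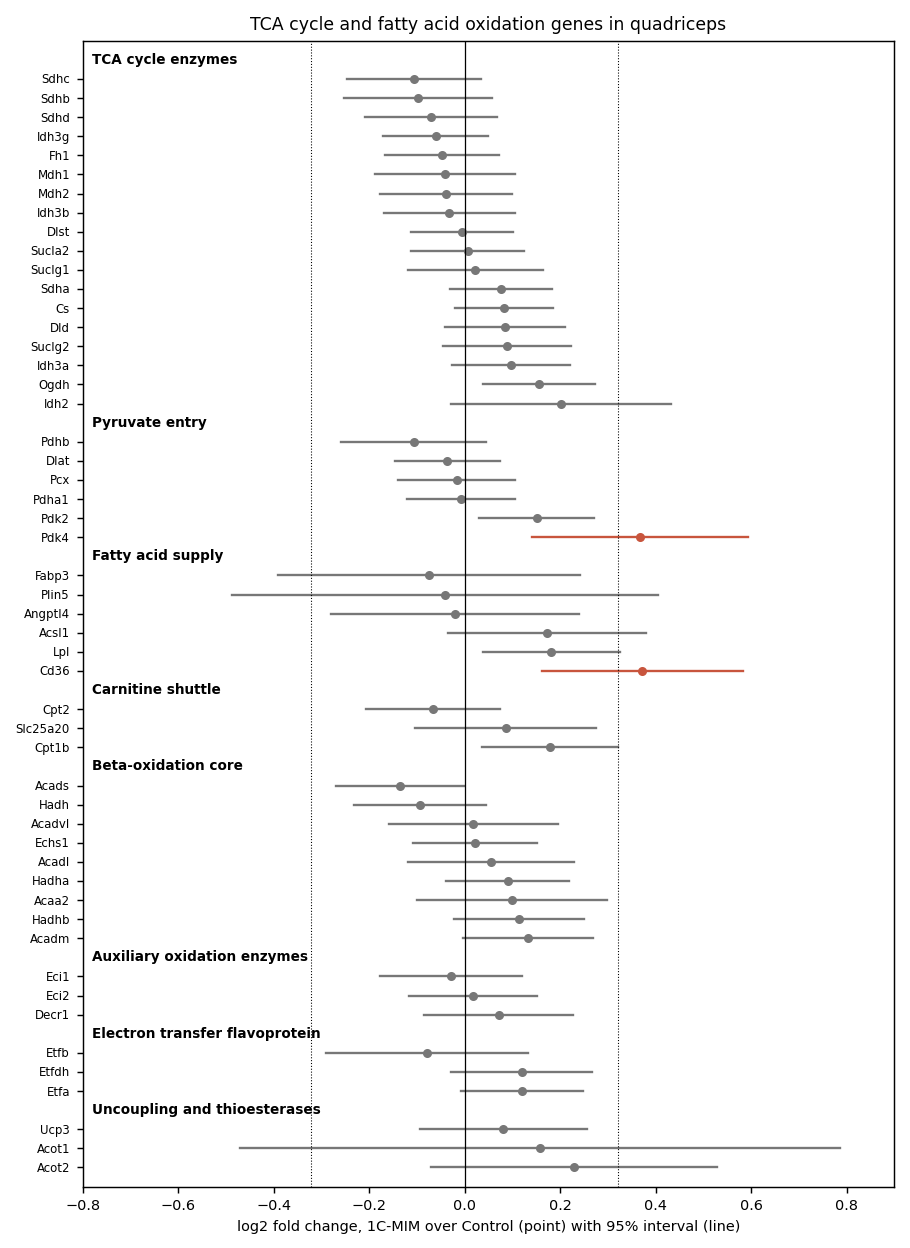
Log2 fold change of 1C-MIM over Control for each of the 51 members, grouped by role, with its 95% interval from the edgeR fit (n = 5 per group). Red marks the 2 called members, Pdk4 and Cd36, dotted lines mark a fold of 1.25 in either direction, and 42 of the intervals lie between them.

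The 18 TCA cycle genes were abundant and close in the 2 groups. In edgeR, 0 of 18 were called, 1 (Ogdh) had an unadjusted p under 0.05, and DESeq2 and limma-voom each called that 1 gene. Their log2 fold changes ran from -0.11 to 0.20, with 9 positive and 9 negative values and a median of 0.0001. For 17 of the 18 the interval lay inside a fold of 1.25. With the length trend removed, Suclg1 and Idh2 were called higher.

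Citrate synthase (Cs), the entry enzyme of the cycle and a usual gauge of mitochondrial content, had 970, 918, 958, 947 and 939 CPM in 1C-MIM, against 888, 945, 866, 885 and 886 CPM in Control. The groups overlapped through Control 2 alone, which lay above the lowest 1C-MIM libraries. The difference was a log2 fold change of 0.08 (SE 0.05), a fold of 1.06 with a 95% interval of 0.986 to 1.14, and did not pass the test (edgeR adjusted p = 0.225).

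Ogdh, the catalytic subunit of the oxoglutarate dehydrogenase complex, had 1109, 1150.0, 1188, 1147 and 1139 CPM in 1C-MIM. In Control it had 988, 1131, 1036, 1022 and 968 CPM. Again Control 2 was the single Control library inside the 1C-MIM range. Its difference, 0.16 on the log2 scale (SE 0.05), narrowly missed the threshold (edgeR adjusted p = 0.0543) and passed it in DESeq2 (adjusted p = 0.0121). The other subunits of the complex, Dlst and Dld, had log2 fold changes of -0.01 and 0.08. Idh2, the NADP-dependent mitochondrial isocitrate dehydrogenase, had the highest value of the cycle, 0.20 (SE 0.11), but its libraries overlapped widely, with 142 to 210 CPM in 1C-MIM and 133 to 181 CPM in Control.

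Subunits of the same complex did not all lie on the same side of 0. Succinate dehydrogenase, which is also complex II of the respiratory chain, has 4 subunits. The catalytic subunit Sdha averaged 955 ± 17.8 CPM in 1C-MIM and 906 ± 41.3 CPM in Control (SD, n = 5 each), a log2 fold change of 0.08. The iron-sulfur subunit Sdhb and the membrane anchors Sdhc and Sdhd had -0.10, -0.11 and -0.07. In the NAD-dependent isocitrate dehydrogenase, the catalytic Idh3a had 0.10, and the other subunits Idh3b and Idh3g had -0.03 and -0.06. With TMM scaling none of these 7 subunits passed the test in edgeR, none passed in DESeq2 or limma-voom, and 0 had an unadjusted p under 0.05. With library totals alone, Sdhc (edgeR adjusted p = 0.0255) and Idh3g (0.0428) were called lower. In both complexes the subunit with the positive value has the longest transcript, 2859 bases for Sdha against 1073 to 1285 for the other subunits, and 2404 for Idh3a against 1331 and 1520.

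The remaining TCA genes lay near 0. They include Sucla2 and Suclg2, the alternative beta subunits of succinyl-CoA ligase (0.01 and 0.09), their shared alpha subunit Suclg1 (0.02), fumarase (Fh1, -0.05) and the cytosolic and mitochondrial malate dehydrogenases Mdh1 and Mdh2 (both -0.04). Sucla2, the ADP-forming subunit, had 222 CPM per kilobase of transcript, and Suclg2, the GDP-forming subunit, had 15.7 CPM per kilobase, means over all 10 libraries.

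Of the 6 genes at the entry of pyruvate, 1 was called higher and 0 lower. Pdk4 had 886, 762, 851, 881 and 829 CPM in 1C-MIM, against 518, 789.5, 695, 716.5 and 543 CPM in Control. The groups overlapped through 1C-MIM 2 and Control 2, and the Controls were widely spread, with Control 1 and Control 5 the lowest. Means were 842 ± 50.1 CPM in 1C-MIM and 652 ± 117 CPM in Control (SD, n = 5 each), which is a fold of 1.29 (95% interval 1.103 to 1.509) or 0.37 on the log2 scale (SE 0.10; edgeR adjusted p = 0.0254). All 5 1C-MIM libraries lay above the Control mean. The call did not hold with library totals alone (adjusted p = 0.0697), without Control 5 (0.0527), without 1C-MIM 3 (0.0529) or without 1C-MIM 4 (0.0622). Without Control 1 and Control 5 together the log2 fold change was 0.20 (adjusted p = 0.0712). Over the 22 alternatives the adjusted p ran from 0.00742 to 0.0712, and the log2 fold change was positive in every one of them.

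The promoter sequence of Pdk4 is shown because it is a called member and a textbook PPAR target. The 250 bases before its RefSeq start (GRCm38.p6, chr6:5496279-5496528, minus strand), written 5′ to 3′ on the gene's strand, are:
Pdk4: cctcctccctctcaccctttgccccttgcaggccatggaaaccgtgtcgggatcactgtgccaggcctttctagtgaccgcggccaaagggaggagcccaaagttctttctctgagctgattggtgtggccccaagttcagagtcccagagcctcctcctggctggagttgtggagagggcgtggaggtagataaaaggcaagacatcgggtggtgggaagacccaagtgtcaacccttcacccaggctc
No letters are in capitals, since the AGGTCA hexamer that these receptors bind was not among them on either strand. Only exact copies near the start were searched for, so the search cannot show that the gene lacks sites for these receptors.

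Pdk2, the other kinase in the list, had 587, 524.5, 583, 538 and 595 CPM in 1C-MIM, against 472, 521, 503, 525 and 526 CPM in Control. Control 4 and Control 5 lay just above the lowest 1C-MIM library. Its log2 fold change of 0.15 (SE 0.06) did not pass in edgeR (adjusted p = 0.0678) and passed in DESeq2 (adjusted p = 0.0287). The enzyme that these kinases act on was close in the groups: Pdha1, the subunit they phosphorylate, had 629 ± 18.8 CPM in 1C-MIM and 632 ± 32.5 CPM in Control (log2 fold change -0.01; 95% interval of the fold 0.92 to 1.07). Pdhb, the partner of Pdha1, Dlat, the acetyltransferase core, and Pcx, which turns pyruvate into oxaloacetate, had -0.11, -0.04 and -0.02.

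Among the 6 genes of fatty acid supply, 1 was called higher and 0 lower. Cd36 had 232, 220.1, 219, 248 and 216 CPM in 1C-MIM, against 145, 211.5, 180.1, 194 and 147 CPM in Control. The groups did not overlap. Of the 51 members, 1 lay without overlap on the higher side and 0 on the lower, against 6.6% and 7.98% of all tested genes. As with Pdk4, Control 1 and Control 5 were the lowest libraries. This was a fold of 1.29 with a 95% interval of 1.118 to 1.498, or 0.37 on the log2 scale (SE 0.10; edgeR adjusted p = 0.0184). The call did not hold with library totals alone (adjusted p = 0.0552) or without 1C-MIM 4 (0.0514). Without Control 1 and Control 5 together the log2 fold change was 0.22 (adjusted p = 0.0553). Over the 22 alternatives the adjusted p ran from 0.00362 to 0.0553.

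Cd36 is made by capillary endothelium, adipocytes and macrophages as well as by muscle fibres. In bulk tissue, fewer cells of a type and less RNA per cell cannot be told apart. Of 12 capillary endothelial markers, 6 were called higher and 0 lower, with 9 positive and 3 negative values. Of all tested genes, 9.78% were called higher and 11.8% lower. The summed level of these markers was 455 to 523 CPM in 1C-MIM and 349.7 to 436 CPM in Control. The groups did not overlap in this sum, and Control 1 and Control 5 were the lowest. Cdh5, the cadherin that defines endothelium, averaged 70.9 ± 4.35 CPM in 1C-MIM and 54.7 ± 8.03 CPM in Control. Of 12 adipocyte markers, 1 was called higher and 3 lower, and they summed to 276.4 to 445 CPM in 1C-MIM and 409 to 481 CPM in Control. Of 12 macrophage markers, 0 were called higher and 10 lower, with 155 to 228 CPM in 1C-MIM and 265 to 517 CPM in Control; the defining marker Cd68 had 5.06 and 12.8 CPM on average in 1C-MIM and Control, and no defining marker of these 3 lists was at 0. The part of these cells in the Cd36 value, and of transcript length in these marker calls, was not tested.

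The promoter of Cd36 (GRCm38.p6, chr5:17835897-17836146, minus strand) is shown for the same reason as that of Pdk4. It is at the single start that the RefSeq promoter set used here holds for the gene. The counts list 5 transcripts of Cd36, and which start the reads came from was not tested. Capitals mark the AGGTCA hexamer read on the opposite strand, at position -228 from the start:
Cd36: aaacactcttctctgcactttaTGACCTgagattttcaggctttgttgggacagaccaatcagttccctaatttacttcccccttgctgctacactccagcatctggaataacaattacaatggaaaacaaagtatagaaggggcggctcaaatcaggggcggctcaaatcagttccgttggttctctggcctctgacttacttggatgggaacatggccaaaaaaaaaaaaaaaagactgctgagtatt

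Lpl, the lipase that frees fatty acids at the capillary wall, had 496, 444, 427, 459 and 447 CPM in 1C-MIM, against 378, 463, 380.55, 402 and 380.05 CPM in Control. Control 2 alone reached into the 1C-MIM range. Its log2 fold change of 0.18 (SE 0.07) missed the threshold in edgeR (adjusted p = 0.0662) and passed in DESeq2 (adjusted p = 0.0332). Angptl4, the secreted inhibitor of that lipase and a PPAR target, averaged 14.0 ± 1.23 CPM in 1C-MIM and 14.2 ± 2.60 CPM in Control (log2 fold change -0.02, SE 0.12; 95% interval of the fold 0.824 to 1.18). Acsl1, which activates long-chain fatty acids, had a log2 fold change of 0.17 (SE 0.10).

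The fatty acid carrier Fabp3 and the lipid droplet coat Plin5 were the members with the widest spread among Controls after the scarce Acot1. Fabp3 had 218, 169, 194.5, 200.0 and 207 CPM in 1C-MIM and 133, 266, 199.7, 232 and 209 CPM in Control. Plin5 had 20.9, 18.5, 22.5, 20.9 and 20.1 CPM in 1C-MIM and 10.9, 29.7, 24.8, 22.2 and 18.2 CPM in Control. For both, Control 1 was the lowest and Control 2 the highest of all libraries, and the 1C-MIM libraries lay between them. Their log2 fold changes were -0.07 (SE 0.15) and -0.04 (SE 0.20), with 95% intervals of the fold of 0.763 to 1.18 for Fabp3 and 0.713 to 1.32 for Plin5. Without Control 1 and Control 5 together, Plin5 was called lower (log2 fold change -0.31, edgeR adjusted p = 0.0418). These are its lowest Controls, so that leaving them out lowers the value by construction.

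**Figure D2:**
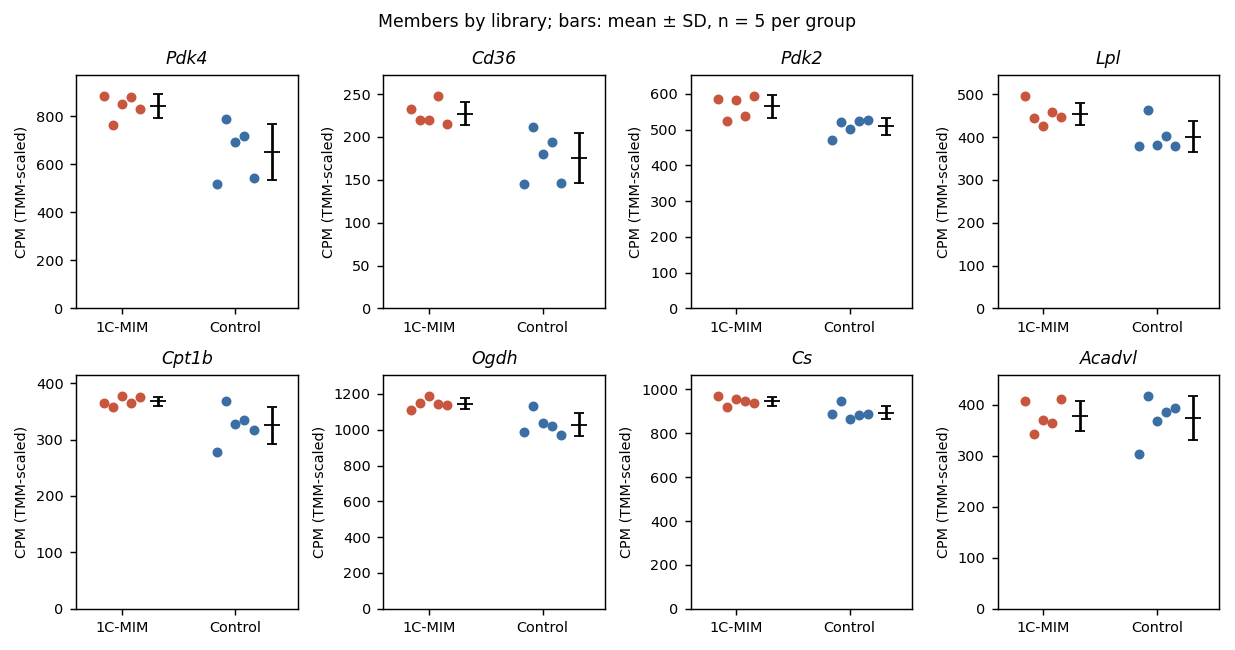
TMM-scaled CPM of 8 members in each library, 1C-MIM in red and Control in blue, with the mean ± SD of 5 libraries in black; each vertical axis starts at 0. Cd36 is the panel without overlap, and in Pdk4, Lpl, Cpt1b, Ogdh and Cs it is Control 2 that reaches into the 1C-MIM range.

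In the carnitine shuttle, 0 of 3 genes were called in edgeR, 1 had an unadjusted p under 0.05, and DESeq2 called 1 and limma-voom 0. That gene was Cpt1b, the muscle form of the enzyme that commits fatty acids to oxidation. It had 365, 358, 377, 364 and 375 CPM in 1C-MIM, against 278, 368, 327, 334 and 318 CPM in Control. The 1C-MIM libraries were tightly grouped, and all but Control 2 among the Controls lay below them. It was higher by 0.18 on the log2 scale (SE 0.07), short of the threshold in edgeR (adjusted p = 0.0678) and past it in DESeq2 (adjusted p = 0.0436), and without Control 2 it was 0.23 (edgeR adjusted p = 0.022). The carrier Slc25a20 and the inner-membrane enzyme Cpt2 had 0.09 and -0.07.

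Of the 9 core enzymes of beta-oxidation, 0 were called in edgeR with TMM scaling, DESeq2 or limma-voom, and 1 had an unadjusted p under 0.05. With the length trend removed, 3 of the 9 were called higher (Acadm, Hadhb and Echs1), and with library totals alone Acads and Hadh were called lower. For all 9 the interval lay inside a fold of 1.25. The acyl-CoA dehydrogenases, which start each round on chains of falling length, had log2 fold changes of 0.02 (Acadvl), 0.06 (Acadl), 0.13 (Acadm) and -0.14 (Acads). Acads, the short-chain enzyme, averaged 92.3 ± 5.98 CPM in 1C-MIM and 101 ± 6.44 CPM in Control (edgeR adjusted p = 0.131). It was called lower without Control 1, its lowest Control library (log2 fold change -0.17, adjusted p = 0.0494). Hadha and Hadhb, the subunits of the trifunctional protein, had 0.09 and 0.11, and Echs1, Hadh and Acaa2, the hydratase, dehydrogenase and thiolase of shorter chains, had 0.02, -0.09 and 0.10.

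The enzymes that handle double bonds, Eci1, Eci2 and Decr1, had -0.03, 0.02 and 0.07. The electron transfer flavoprotein, which carries electrons from the acyl-CoA dehydrogenases to the respiratory chain, had values of 0.12 (Etfa) and -0.08 (Etfb), and its dehydrogenase Etfdh had 0.12. Ucp3, the muscle uncoupling protein and a gene that rises with fatty acid load, had 266 ± 33.4 CPM in 1C-MIM and 252 ± 13.7 CPM in Control (log2 fold change 0.08; 95% interval of the fold 0.937 to 1.19). The thioesterases Acot1 and Acot2 are near-identical neighbours, so that reads may be split between them; Acot1 had 185 reads over all 10 libraries, and Acot2 had a value of 0.23 on the log2 scale (SE 0.14; edgeR adjusted p = 0.246). Of these 9 genes, 0 were called by edgeR with TMM scaling, DESeq2 or limma-voom, and 0 had an unadjusted p under 0.05. Etfa was called higher with the length trend removed.

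Compared per kilobase of transcript, the levels spanned a wide range. Mdh2 led with 655 CPM per kilobase in 1C-MIM and 673 in Control, followed by Sdhb with 380.9 in 1C-MIM and 408 in Control. Mdh1, Cs, Sdha and Fabp3 came next at 317 to 336 CPM per kilobase over all libraries. The kinases Pdk2 (237.5) and Pdk4 (216) lay at about the level of Pdha1 (228), while the acetyltransferase Dlat was at 47.6 CPM per kilobase. In beta-oxidation, Acadvl had 172, Acadm 140.2, Acadl 131 and Acads 51.8 CPM per kilobase. At the low end were Plin5 (10.5), Angptl4 (7.40), Acot2 (4.76) and Acot1 (0.394).

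**Figure D3:**
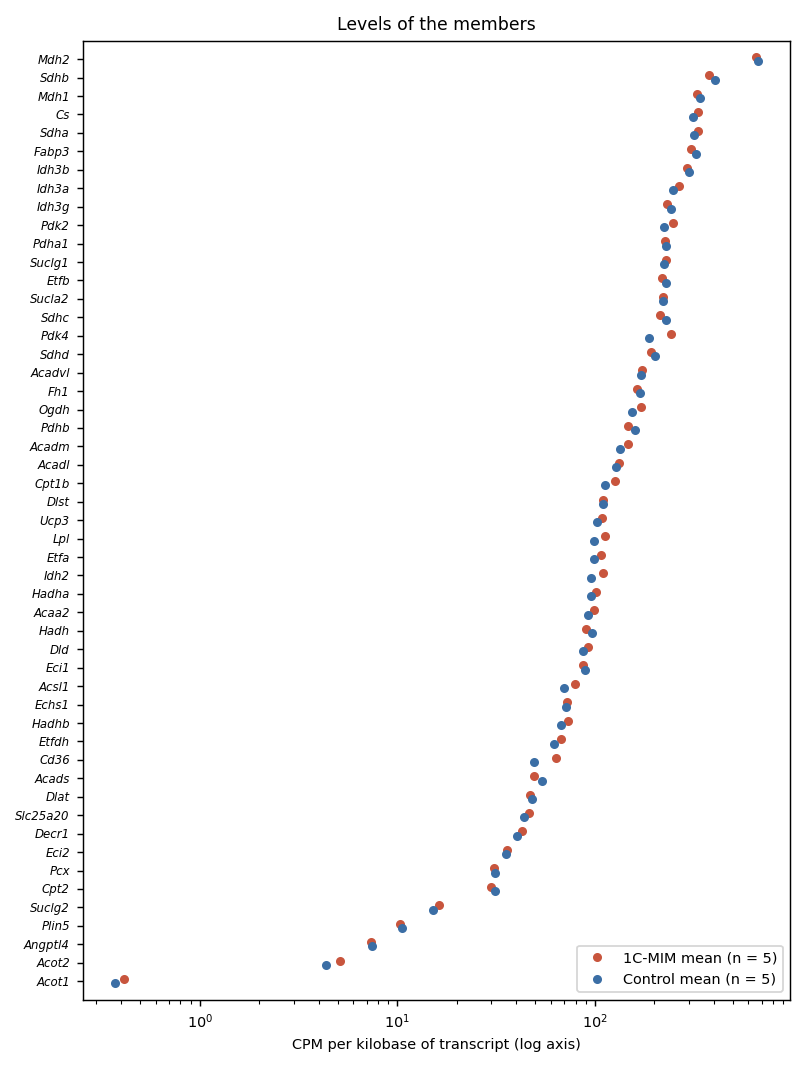
Mean CPM per kilobase of transcript of each member on a log axis, in 1C-MIM (red) and Control (blue), n = 5 libraries each. The points of a gene lie close together along a range from Acot1 at 0.394 to Mdh2 at 664 CPM per kilobase over all libraries.

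Some libraries were low or high across many members at once, most of them fatty acid genes in the case of Control 1 and Control 2. Control 1 held the lowest value of the 10 libraries in 17 of 27 fatty acid members and in 4 of 24 TCA and pyruvate members, in all 41.2% of the members against 13.2% of all tested genes. Control 2 held the highest value in 8 and 3 of these. Among the supplemented animals, 1C-MIM 1 held the highest value in 21 of 51 members (41.2%, against 10.7% of all tested genes), and 1C-MIM 2 the lowest in 14 (27.5%, against 16.5%). The median deviation of the 27 fatty acid members from their Control means was 0.18 in 1C-MIM 1, -0.10 in 1C-MIM 2, 0.09 in 1C-MIM 3, 0.04 in 1C-MIM 4 and 0.11 in 1C-MIM 5 on the log2 scale. In Control 1 to Control 5 it was -0.16, 0.14, -0.03, 0.06 and 0.01. The ranges of the groups overlapped, and each group's range was wider than the distance between the groups' middle values.

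The markers of slow and oxidative fibres did not go one way. Control 1 was the lowest of the 10 libraries in 5 of the 10, among them the 2 most abundant. Myoglobin (Mb), the oxygen store of these fibres, had 2409, 1645, 1798, 1909 and 2052 CPM in 1C-MIM and 1232, 2322, 1864, 1998 and 1814 CPM in Control. Myh2, the myosin of fast oxidative fibres, had 925, 1084, 939, 902 and 899 CPM in 1C-MIM and 364, 873, 775, 659 and 581 CPM in Control. For Myh2 the groups did not overlap, although it missed the threshold (log2 fold change 0.55, edgeR adjusted p = 0.0538). Of the 10 markers, 0 were called higher and 4 lower in 1C-MIM (the slow-fibre genes Tnni1, Tnnt1, Tnnc1 and Tpm3), 8 had negative values, and the median log2 fold change was -0.42. Tnni1, the slow troponin I, had 1.67 to 2.89 CPM in 1C-MIM and 8.58 to 20.7 CPM in Control, with Control 1 the highest. For 3 of the 4 the groups did not overlap. Of 9 fast glycolytic fibre markers, 4 were called higher and 0 lower (Myh4, Myh1, Actn3 and Atp2a1, each without overlap), the other 5 had negative values, and the median was -0.01. Calls over all genes depended on transcript length. Of genes of at least 2500 bases, 15.2% were called higher and 6.29% lower. Of genes shorter than 1500 bases, 1.53% were called higher and 25.2% lower. The part of length in these marker calls, and of fibre makeup in the members' values, was not tested.

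**Figure D4:**
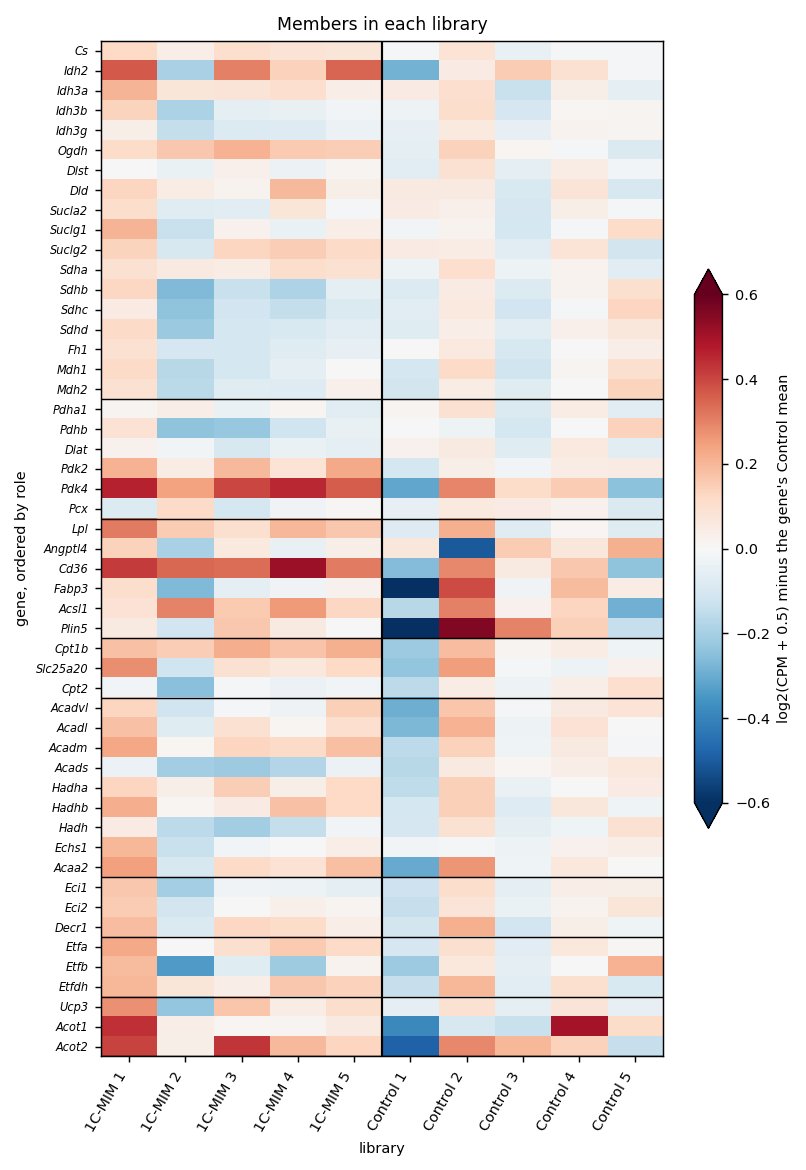
Log2(CPM + 0.5) of each member minus its Control mean, by library, with the 1C-MIM libraries left of the black line and the Control libraries right of it; horizontal lines part the roles. Pdk4 and Cd36 are red in all 5 1C-MIM libraries, Control 1 is blue for most fatty acid genes, and 1C-MIM 1 is red in most rows.

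The members' fold changes followed transcript length, as did those of all genes. Spearman's rho between log2 fold change and length was 0.54 over the 51 members and 0.44 over the 13880 tested genes, which share the same 10 libraries. Of 12 members shorter than 1500 bases, 9 had negative values, with a median of -0.07 against -0.18 for all genes of that length. Of 15 members of at least 2500 bases, 11 had positive values, with a median of 0.09 against 0.09 for all genes. Pdk4 (3453 bases) and Cd36 (3566 bases) are among these.

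With each library's trend with length removed, 46 members had positive values and 5 negative, with a median of 0.12 against 0.02 for all genes. Then 10 members were called higher and 0 lower, 19.6% of the members, where 8.35% of all genes were called higher and 16.3% were called in either direction. They were Etfa (log2 fold change 0.27, SE 0.05, adjusted p = 0.00421), Pdk2 (0.22), Acadm (0.22), Hadhb (0.20), Suclg1 (0.18), Echs1 (0.17), Cpt1b (0.19), Idh2 (0.33), Pdk4 (0.35, SE 0.10, adjusted p = 0.0375) and Cd36 (0.34, SE 0.09, adjusted p = 0.0219). Sdhb, Sdhc and Sdhd, negative before, then had 0.09, 0.07 and 0.10, beside 0.09 for Sdha. Ogdh, whose transcript of 6691 bases is the longest of the members, had -0.01.

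**Figure D5:**
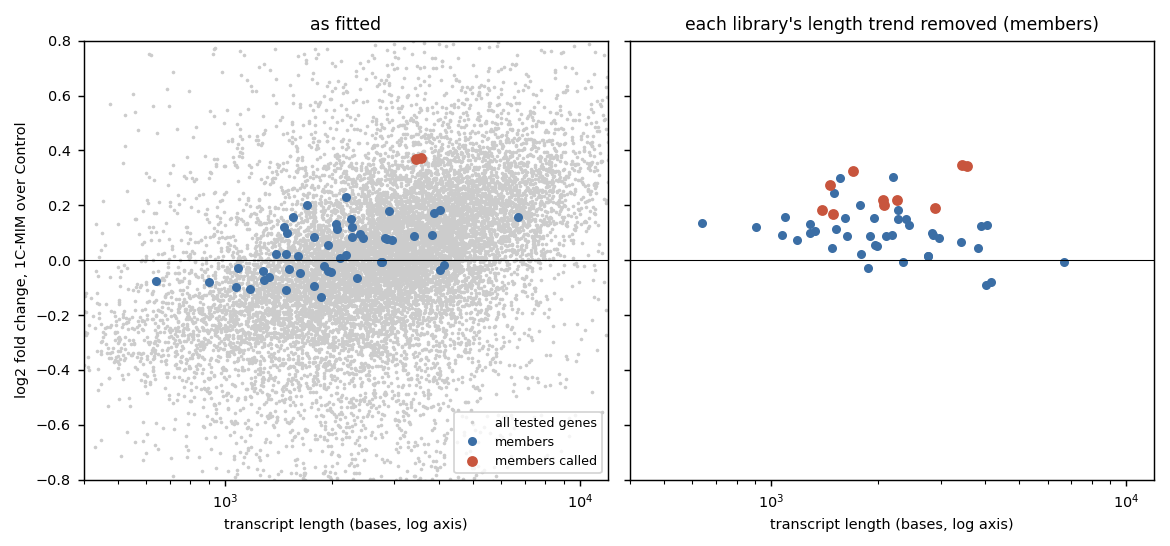
Log2 fold change of 1C-MIM over Control against transcript length on a log axis, for all tested genes (grey, vertical axis limited to 0.8 in either direction) and the 51 members (blue, called members red). At left, values as fitted, with 2 called members; at right, members after each library's length trend was removed, with 46 values above 0 and 10 called.

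The other genes of these pathways, 128 in 5 fixed lists, gave a count close to that of all genes. Of 124 tested, 17 were higher, 9 lower and 98 not called (21.0%, against 21.6% of all tested genes), with a median log2 fold change of 0.05. Without 1C-MIM 4 the counts were 8 higher and 5 lower, without 1C-MIM 3 they were 9 and 5, and without Control 1 and Control 5 together 9 and 7. Counts of 10 or 11 higher were found without 1C-MIM 2, Control 3, Control 4 or Control 5, and 15 were lower without 1C-MIM 1. With library totals alone 5 were higher and 25 lower. Of all tested genes, 4.37% were higher and 20.9% lower in that fit. Without 1C-MIM 4 these shares were 5.29% and 6.74%, and without 1C-MIM 3 they were 6.04% and 7.57%.

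Among 28 other TCA and pyruvate genes, 5 were higher and 3 lower. Me1, the cytosolic malic enzyme, rose to 279 ± 10.8 CPM in 1C-MIM, against 227 ± 6.46 CPM in Control (0.30 on the log2 scale, SE 0.05, edgeR adjusted p = 0.00211). Its libraries did not overlap between the groups, and the call held under all 22 alternatives. The pyruvate dehydrogenase kinases moved apart: Pdk1 was higher (0.22, SE 0.06) and the scarce Pdk3 was lower, at 0.965 ± 0.216 CPM in 1C-MIM and 1.62 ± 0.121 CPM in Control (-0.75, SE 0.18). The call of Pdk1 did not hold with the length trend removed (0.11, edgeR adjusted p = 0.164), with library totals alone (0.122), without 1C-MIM 4 (0.0547), or without Control 1 and Control 5 together (0.0609).

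Of 21 genes of fatty acid uptake and lipid droplets, 3 were higher and 1 lower. The lipid droplet coat Plin4 had 371 ± 40.1 CPM in 1C-MIM and 262 ± 42.4 CPM in Control (log2 fold change 0.50, SE 0.11), and the acyl-CoA synthetase Acsl3 had 0.54 (SE 0.14). Neither passed with the length trend removed (adjusted p = 0.0906 for Plin4 and 0.0806 for Acsl3). Fabp5, a fatty acid carrier of macrophages, endothelium and skin, fell to 5.07 ± 0.45 CPM in 1C-MIM, against 8.998 ± 1.31 CPM in Control (-0.83, SE 0.11, edgeR adjusted p = 0.000452). Like most of the macrophage markers given above, it was lower in 1C-MIM as a group. Among Controls the orders differed: Control 3 had the highest macrophage sum, 517 CPM, and the lowest Fabp5, 7.47 CPM. The part of macrophages in its value was not tested.

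Of 32 other mitochondrial genes of fatty acid oxidation, 5 were higher and 4 lower. Ucp2, an uncoupling protein relative that is abundant in macrophages, was lower (-0.64, SE 0.10), also beside the macrophage markers, as was the thioesterase Acot9 (-0.28, SE 0.06). Acacb, which makes the malonyl-CoA that blocks the carnitine shuttle, was higher, at 437 ± 37.8 CPM in 1C-MIM and 330.5 ± 45.6 CPM in Control (log2 fold change 0.40, SE 0.09, edgeR adjusted p = 0.00952). Its transcript of 8485 bases is long, and with the length trend removed its value was 0.19 (adjusted p = 0.107). Acot9 also failed there (-0.14, adjusted p = 0.147).

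Of 18 tested of 22 peroxisomal genes, 3 were higher and 1 lower. The reductase Decr2 was lower (-0.36, SE 0.08), and the fatty acid importers Abcd3 (0.20, SE 0.06) and Abcd2 (0.24, SE 0.08) were higher. The calls of Abcd3 (edgeR adjusted p = 0.031) and Abcd2 (0.0481) sat near the threshold. That of Abcd3 was lost under 8 of the 22 alternatives. These were without 1C-MIM 2, 1C-MIM 3, 1C-MIM 4, Control 1, Control 3 or Control 5 (edgeR adjusted p 0.0524 to 0.0726), without Control 1 and Control 5 together (0.132), and with library totals alone (0.153). That of Abcd2 was lost under 10, among them without any of 1C-MIM 1 to 1C-MIM 4 or Control 3 to Control 5 (0.0558 to 0.102). It was also lost with the length trend removed (log2 fold change 0.12, edgeR adjusted p = 0.164) and with library totals alone (0.173). Among 25 transcriptional regulators of oxidation, 1 was higher and 0 lower, and 2 had an unadjusted p under 0.05. It was Rxra, the retinoid receptor that pairs with PPARs, with 220 ± 11.4 CPM in 1C-MIM and 189 ± 14.1 CPM in Control (0.22, SE 0.06, edgeR adjusted p = 0.0245), and its call did not hold with the length trend removed (0.11, adjusted p = 0.164), with library totals alone (0.135), without any of 1C-MIM 2 to 1C-MIM 4 or Control 3 (0.0528 to 0.057), or without Control 1 and Control 5 together (0.109). Of the 25 regulators, 20 had positive values and 5 negative, with a median log2 fold change of 0.14 and a range of -0.15 to 0.74. Of all tested genes, 50.1% had positive values. The part of transcript length in the regulators' split was not tested. Ppara, Ppard, Esrra and Ppargc1a, named after their values were seen, had log2 fold changes of 0.11, -0.03, -0.15 and 0.15 and did not pass.

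Promoters of 44 members were in the RefSeq table, each 250 bases before to 50 after the start. Both strands were searched. The ERR element TCAAGGTCA was in 1 of 44 members, against 0.329% of 10341 tested genes with a promoter. The direct repeat of AGGTCA that PPARs bind, with 1 base between the copies, was in 0 of 44, against 0.0387% of these genes. The hexamer AGGTCA, which the ERR element and the direct repeat contain, was in 13 of 44 members (29.5%), against 15.2% of these genes. The member with the ERR element was Sdhd, at position 37 after its start and read on the opposite strand, shown here as the single full match (GRCm38.p6, chr9:50603800-50603823, minus strand, the element in capitals):
Sdhd: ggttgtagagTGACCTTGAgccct
Sdhd did not differ beyond the spread between libraries (log2 fold change -0.07, SE 0.06), and the matches are descriptions of sequence alone.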

How the data were processed

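RNA-seq of quadriceps from 5 1C-MIM and 5 Control mice was analysed from tables of 33984 RefSeq transcripts whose columns are, per the file headers, FPKM, TPM and count. Per the submitters' processing notes, the tools were STAR, Salmon 1.5.2, featureCounts, StringTie 2.2.1, Subread 2.0.1, Trim Galore 0.6.7, Picard 2.27.4, DESeq2 1.28.0, bedtools 2.30.0 and SAMtools 1.15.1, on build GRCm39, with no roles stated. No source used here states strandedness or filters. The deposited count values are raw, and reads that fit several isoforms are counted for each by the authors. The deposited FPKM values, scaled by the authors to transcript length and library total, served only to recover transcript lengths. The TPM values were not used.

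The transcript with the most reads over all libraries stood for each symbol. Counts were filtered with filterByExpr, scaled with TMM and tested with edgeR 4.0.16 (quasi-likelihood, robust; R 4.3.3), with Benjamini-Hochberg adjustment over 13880 genes. Standard errors are the log2 fold change over the root of F, and 95% intervals use the fit's degrees of freedom. The model was tested on simulated data. p-values measure the spread between libraries, since no label describes separate cultures, cages or batches, and counting error is part of that spread.

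Alternatives were other scalings (DESeq2 size factors, upper quartile, library totals), no filter or at least 1 CPM in 5 libraries, DESeq2 1.42.0, limma-voom (limma 3.58.1), blocks for replicate number and for the series of the animal number, summed transcripts, a natural spline on length with 3 inner knots removed as an offset, libraries left out, and an adjusted p under 0.1. The members, lists and tests were chosen with earlier results of these data known. Full values are given for up to 3 called genes of each role or list with the smallest p and for the 3 largest called changes of members in each direction; other genes given library by library were chosen after their values were seen. Promoters come from RefSeq (GRCm38.p6), not the build of the counts.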

Additional observations from a re-analysis of the deposited data

Results flagged for a closer look

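Of 128 groups of 5 libraries examined (51 members and 13 other named genes, both groups each), 9 had a lowest or highest library whose gap to its neighbour exceeded 0.71 of the group's range, Dixon's critical value; chance gives about 1 in 20 groups. Control 2 was past it 3 times, with Cs at 945 CPM (other Controls 866 to 888), Lpl at 463 CPM (378 to 402) and Angptl4, here the lowest, at 9.68 CPM (14.7 to 16.3). Control 1 was past it with Acads at 90.1 CPM (other Controls 102 to 106).

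In 1C-MIM 2, Suclg2 was low at 48.7 CPM (other 1C-MIM libraries 56.4 to 57.6) and Cpt2 at 61.9 CPM (72.0 to 73.2). In 1C-MIM 1, Fh1 was high at 295.0 CPM (258 to 267) and Acot1 at 0.933 CPM (0.565 to 0.595), a gene with 185 reads in all. In 1C-MIM 5, Abcd2 was low at 57.3 CPM (62.3 to 63.9).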

How the results depend on the processing

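Each of the 15 named genes kept its direction under all 22 alternatives, and 289 of 330 such values stayed past the threshold. These genes were picked among those called in the main fit, and the alternatives use the same libraries. Their kept directions and calls are therefore no separate support. With library totals alone, calls over all genes were 606 higher and 2896 lower, over members 0 and 5, and over other pathway genes 5 and 25. Without Control 1 and Control 5 these were 832 and 976, 0 and 1, and 9 and 7. At an adjusted p under 0.1, 2114 genes and 6 members were higher, and 18 pathway genes lower. DESeq2 called 6 members higher. With the length trend removed, 10 members were higher and 5 pathway genes lower. Leaving out single libraries gave 739 (without 1C-MIM 4) to 1558 genes higher and 941 (without 1C-MIM 4) to 1885 lower, 0 to 6 members higher and 0 to 1 lower, and 8 to 21 pathway genes higher and 5 to 15 lower. The cause of these shifts was not tested. Libraries with the same replicate number did not pair throughout (correlations of their deviations -0.08, 0.12, 0.06, 0.12 and 0.39). Only 1C-MIM 5 and Control 5 were each other's best match. With replicate number as a block, 1932 genes were higher and 1965 lower, 28.1% of all tested genes against 21.6%. In that fit 2 members were higher and 0 lower, and 15 pathway genes lower, against 9. Depth limits Acot1, with under 1 CPM in every library.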
